A study of Homo sapiens with 4 samples.

Results

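GATA2 occupancy was examined at 9 genes of the cytokine receptor and JAK-STAT pathway: the ligand KITLG, the receptors KIT, FLT3, EPOR and CSF2RB, the kinases JAK2 and LYN, and the transcription factors STAT5A and STAT5B. The intervals were chosen by position. Each deposited GATA2 interval was taken that overlapped the GENCODE gene body extended on each side by 150 kb for KIT or by 50 kb for the other genes (hg38). This gave 46 of the 31777 intervals of asynchronous K562 cells and 4 of the 1648 intervals of mitotic K562 cells. K562 is an established human chronic myeloid leukaemia cell line that carries the BCR-ABL1 fusion. Endogenous GATA2 was mapped by ChIP-seq, which sequences the DNA recovered with an antibody and calls the sites where reads pile up, in 1 library of asynchronous cells, most of them in interphase, and in 1 library of mitotic cells. The mitotic cells had been arrested with nocodazole, doubly fixed as the asynchronous cells were, sorted for MPM-2 with less than 10% of asynchronous cells left, and pooled over several sorts. Since each condition had 1 library, differences between conditions could not be checked against replicates, and no test was made. The deposited lists hold only positions, so read depth, height and expression of the genes in these cells are not known from them.

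Haematopoietic cytokines act through receptors that either carry their own tyrosine kinase, such as KIT and FLT3, or borrow a JAK kinase, such as EPOR and the shared beta chain CSF2RB. Stem cell factor, the product of KITLG, is the ligand of KIT, which marks stem cells, progenitors and mast cells. JAK2 is bound to EPOR and CSF2RB and phosphorylates STAT5A and STAT5B, which then enter the nucleus and activate genes of survival and erythroid growth. LYN is a SRC family kinase that acts at the same receptors. GATA2 is a zinc finger factor of stem and progenitor cells that binds the sequence GATA, and in the mouse it occupies elements far upstream of Kit and within its introns. A site that GATA2 also holds in mitosis is called bookmarked. Here an asynchronous interval was called bookmarked if it shared at least 1 base with a mitotic interval.

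The sequences that carry the main results are shown first, from the reference genome (hg38, plus strand), with capitals for WGATAR, the GATA motif (W for A or T and R for A or G), matched on either strand, and for the CTG and GATAA of the GATA:E-box composite (CTG and GATAA separated by 8 bases), a form bound by GATA factors with TAL1. Both bookmarked intervals upstream of KIT are shown because they differ in where the motifs lie. In the far upstream interval, the composite and the only WGATAR match stood outside the mitotic interval, which begins at 54542674.
KIT far upstream, chr4:54542560-54542859: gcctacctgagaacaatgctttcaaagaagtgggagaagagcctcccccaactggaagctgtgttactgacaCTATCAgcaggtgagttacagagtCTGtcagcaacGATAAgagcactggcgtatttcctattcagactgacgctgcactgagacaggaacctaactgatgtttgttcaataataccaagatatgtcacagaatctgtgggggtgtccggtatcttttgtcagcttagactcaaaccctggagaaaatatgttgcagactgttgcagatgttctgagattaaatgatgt
KIT near upstream, centre of the mitotic interval, chr4:54571281-54571580: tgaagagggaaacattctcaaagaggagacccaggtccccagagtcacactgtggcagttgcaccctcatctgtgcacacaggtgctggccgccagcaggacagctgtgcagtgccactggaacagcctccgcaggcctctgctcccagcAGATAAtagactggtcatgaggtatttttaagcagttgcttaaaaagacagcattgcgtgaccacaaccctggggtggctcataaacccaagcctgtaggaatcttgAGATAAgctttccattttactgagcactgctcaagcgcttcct
KIT near upstream, run of GATA matches outside the mitotic interval, chr4:54570953-54571055: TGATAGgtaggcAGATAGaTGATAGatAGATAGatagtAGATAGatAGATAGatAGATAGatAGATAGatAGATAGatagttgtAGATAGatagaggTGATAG
The interval in intron 1 of KIT and the interval at the EPOR promoter are shown because the former holds a composite and the latter is the only interval that covers the canonical TSS of one of the 9 genes, and the interval in STAT3 is shown as the mitotic interval of the STAT5 windows.
KIT intron 1, chr4:54668015-54668314: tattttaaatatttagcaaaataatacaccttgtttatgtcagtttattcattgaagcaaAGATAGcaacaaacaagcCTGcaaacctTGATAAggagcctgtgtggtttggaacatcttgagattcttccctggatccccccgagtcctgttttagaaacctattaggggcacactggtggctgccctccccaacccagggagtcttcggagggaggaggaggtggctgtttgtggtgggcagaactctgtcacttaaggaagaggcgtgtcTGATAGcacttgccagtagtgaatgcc
EPOR promoter, chr19:11384268-11384567: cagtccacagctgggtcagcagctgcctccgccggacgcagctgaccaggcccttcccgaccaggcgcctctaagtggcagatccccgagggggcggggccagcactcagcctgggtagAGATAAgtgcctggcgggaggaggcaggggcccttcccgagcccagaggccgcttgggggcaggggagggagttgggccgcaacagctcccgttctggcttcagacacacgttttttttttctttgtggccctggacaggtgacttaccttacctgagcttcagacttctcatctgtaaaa
STAT3 intron 21, mitotic interval, chr17:42320055-42320223: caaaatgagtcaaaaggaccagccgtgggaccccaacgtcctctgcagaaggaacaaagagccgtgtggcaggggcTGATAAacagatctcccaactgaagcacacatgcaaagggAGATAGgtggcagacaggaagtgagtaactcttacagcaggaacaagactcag

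Bookmarked intervals were found at KIT, at LYN and in the overlapping windows of STAT5A and STAT5B. KITLG had no interval in either list, and EPOR, CSF2RB, FLT3 and JAK2 had asynchronous intervals only. In all, 4 of the 46 asynchronous intervals were bookmarked, which is 8.70% (95% exact binomial interval 2.42% to 20.8%), beside 5.04% of the whole asynchronous list (1600 of 31777). The interval holds the value of the whole list, so a difference was not detectable with 46 intervals. With a reciprocal overlap of 50% in place of 1 base, the shares were 2.17% (1 of 46) and 2.02% (641 of 31777). Intervals given for shares cover counting error only. Without KIT, the share was 5.26% (2 of 38). Counted by gene, 4 of 9 genes had a mitotic interval, but STAT5A and STAT5B owed it to the same interval. Of all 19970 protein-coding genes, 11.7% had a mitotic interval within 50 kb of the gene body. With 50 kb for every gene, KIT lost both of its mitotic intervals, and 3 of 9 genes were left with a mitotic interval.

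KITLG, the gene of the ligand (ENSG00000049130), is located at chr12:88492793-88580851, minus strand. Its window held no GATA2 interval in asynchronous cells and none in mitotic cells. The nearest asynchronous interval was 77974 bp from the gene body and the nearest mitotic interval 536568 bp. Asynchronous intervals were found within 50 kb of 76.3% of protein-coding genes, and 8 of the 9 genes described here had at least 1 in their windows.

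KIT, the receptor for stem cell factor (ENSG00000157404), is located at chr4:54657267-54740783, plus strand. Its window held 8 asynchronous and 2 mitotic intervals. Of the 8 asynchronous intervals, 6 lay in the intergenic sequence upstream of the gene and 2 within it, in introns 1 and 7 of the canonical transcript. All 8 had KIT as the gene with the nearest protein-coding TSS. Both bookmarked intervals were upstream, and neither intronic interval overlapped a mitotic interval. Of all protein-coding genes, 34.4% had as many asynchronous intervals or more in windows of the same extension, 36.1% had windows as dense or denser, and 5.48% had at least 2 mitotic intervals there.

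The far upstream bookmarked interval of KIT spans chr4:54542419-54543012 and was 594 bp wide, with its midpoint 115242 bp upstream of the canonical KIT TSS. Its mitotic counterpart, chr4:54542674-54542848, was 175 bp wide and covered 29.5% of it. The asynchronous interval held 1 WGATAR match, CTATCA from 54542632 to 54542637, and 1 composite from 54542656 to 54542671. The composite ended 2 bases before the mitotic interval began, the WGATAR match lay farther upstream, and the mitotic interval held no WGATAR match. In the whole mitotic list, 72 of 1648 intervals (4.37%) held none. The mitotic interval held 2 copies of the shorter string GATA, counted on either strand, neither of them in the WGATAR context. The boundaries of the lists are those of the peak caller, and how precisely they mark the bound site is not known from the lists.

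The near upstream bookmarked interval of KIT, chr4:54570757-54572057, was 1301 bp wide and lay 86550 bp upstream of the TSS. It was the widest of the 46 intervals and ranked 81 of 31777 in the whole list. The mitotic interval inside it, chr4:54571238-54571623, was 386 bp wide, above the median of 298 bp of all mitotic intervals, and covered 29.7% of it. The asynchronous interval held 16 WGATAR matches, more than any other of the 46 intervals. Of these, 11 stood in a run of GATA units of 103 bases, from 54570953 to 54571055, which ended 182 bp before the mitotic interval. The mitotic interval held 2 of the 16 matches, both AGATAA, from 54571431 to 54571436 and from 54571538 to 54571543. Thus both mitotic intervals upstream of KIT left out most or all WGATAR matches of the asynchronous interval around them. The mitotic intervals at LYN and in STAT3 held every match of theirs, 3 and 2. Over the whole lists, mitotic intervals held 3989 matches and bookmarked asynchronous intervals 5697. The 2 mitotic intervals upstream of KIT stood 28389 bp apart.

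The other 4 upstream intervals of KIT were asynchronous only. The one farthest from the gene, chr4:54525484-54526243, was 760 bp wide, wider than the far upstream bookmarked interval, and held 4 WGATAR matches. The interval chr4:54548961-54549446 was 486 bp wide with 3 matches, all AGATAA. The remaining upstream intervals were 180 and 338 bp wide, with 0 and 2 matches. Within the gene, the interval in intron 1 (chr4:54668003-54668326) was 324 bp wide, with 3 matches and 1 composite from 54668093 to 54668108. The interval in intron 7 (chr4:54719368-54719839) was 472 bp wide, with 2 matches. Width therefore did not order the KIT intervals by bookmarking, since an interval of 760 bp was asynchronous only and one of 594 bp was bookmarked.

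FLT3, the receptor for FLT3 ligand on early progenitors (ENSG00000122025), is located at chr13:28003274-28100592, minus strand. Its window held 4 asynchronous intervals and no mitotic interval. They were narrow, with a median width of 232 bp and a range of 182 to 353 bp, against a median of 378 bp in the whole list. The interval chr13:28093928-28094204 lay in intron 1 of FLT3, 6510 bp downstream of its TSS, and held 2 AGATAA matches. The other 3 had the TSS of PAN3, the neighbouring gene of a deadenylation factor, as the nearest, and the widest of them, of 353 bp, was chr13:28120286-28120638. All 4 intervals held a WGATAR match, and the narrowest, of 182 bp in intron 1 of PAN3, held 3. The nearest mitotic interval was 307866 bp from the gene body.

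EPOR, the erythropoietin receptor (ENSG00000187266), is located at chr19:11377207-11384342, minus strand. It had 4 asynchronous intervals and no mitotic interval, and the nearest mitotic interval was 722764 bp away. It was the only one of the 9 genes with an interval midpoint within 3 kb of its canonical TSS. The interval chr19:11384185-11384657 was 473 bp wide and covered the TSS at 11384314. It held 1 WGATAR match, AGATAA from 11384387 to 11384392, 73 bp upstream of the TSS, 3 copies of the E-box CAGCTG and 1 composite from 11384615 to 11384630. A neighbouring interval, chr19:11383290-11383696, lay in intron 1 and was 407 bp wide. It held no WGATAR match and had a GC content of 70.3%, the highest of the 46. The other 2 intervals lay near CCDC159, whose TSS was the nearest to both.

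The promoters of RefSeq (build GRCh38.p14), which run from 250 bases before to 50 after each start, were matched for 7 of the 9 genes. Among these, a WGATAR match was found only in the promoter of EPOR, whose promoter was also the only one overlapped by an asynchronous interval. Of all 35116 promoters in the table, 25.0% held a WGATAR match on either strand. No promoter of the 7 genes overlapped a mitotic interval. Of all promoters in the table, 3.45% overlapped an asynchronous interval and 0.196% a mitotic interval.

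CSF2RB, the signalling chain shared by the receptors for IL-3, IL-5 and GM-CSF (ENSG00000100368), is located at chr22:36913628-36940439, plus strand. Its window held 3 asynchronous intervals and no mitotic interval. The interval chr22:36901323-36901767, 12083 bp upstream of the TSS, was 445 bp wide and had CSF2RB as its nearest gene. It held 1 AGATAA match and 1 RUNX core (AACCACA). The other 2 lay 63220 and 68807 bp downstream of the TSS, nearer to the TSS of TEX33, and were 344 and 503 bp wide, the latter (chr22:36982184-36982686) the widest at this gene. All 3 held a WGATAR match, and no interval touched the gene body.

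JAK2, the kinase of the erythropoietin and thrombopoietin receptors (ENSG00000096968), is located at chr9:4984390-5129948, plus strand. Its window held 2 asynchronous intervals, both upstream, and no mitotic interval. The wider, chr9:4938978-4939714, was 737 bp wide with 4 WGATAR matches and 1 ETS core (AGGAAGT), 45926 bp upstream of the TSS. Its neighbour, chr9:4937658-4937841, was 184 bp wide with 2 matches. In the whole list, intervals as wide as the former, in the widest decile (682 to 2590 bp), were bookmarked in 24.7% of cases. No interval touched the body of JAK2, and the density of its window, 0.814 intervals per 100 kb, was below the median of 1.42 over all protein-coding genes.

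STAT5A and STAT5B, the genes of the STAT factors downstream of JAK2, lie head to head. STAT5A (ENSG00000126561) is located at chr17:42287547-42311943 on the plus strand and STAT5B (ENSG00000173757) at chr17:42199176-42288633 on the minus strand. Their windows held 9 and 7 asynchronous intervals, 7 of them shared, so that 9 different intervals were counted. As many asynchronous intervals or more were found at 5.20% of protein-coding genes for STAT5A and 10.2% for STAT5B. By density, 7.23 and 3.69 intervals per 100 kb of window, as dense or denser windows were found at 1.55% and 14.7% of them. Of the 9 intervals, 3 lay in intron 1 of STAT5B, and one of these, chr17:42266990-42267547 of 558 bp with 4 WGATAR matches, was the nearest to the STAT5B TSS, at 9123 bp. None touched the body of STAT5A, and the nearest was 676 bp away. The other 6 had STAT3 as the gene with the nearest TSS, and 5 of them had their midpoint in STAT3 itself, which lies next to STAT5A.

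The mitotic interval of the STAT5 windows, chr17:42320055-42320223, was the narrowest of the 4, at 169 bp. It lay in intron 21 of the canonical STAT3 transcript, 8111 bp from the end of STAT5A and over the TSS of another STAT3 transcript. The bookmarked asynchronous interval around it, chr17:42319915-42320427, was 513 bp wide, and 32.9% of it was covered. It held 2 WGATAR matches, TGATAA from 42320131 to 42320136 and AGATAG from 42320171 to 42320176, both inside the mitotic interval. The mitotic interval also held 1 ETS core, from 42320186 to 42320192, and 1 AP-1 string (TGASTCA, where S is C or G), from 42320060 to 42320066. A wider interval of the same cluster, chr17:42312620-42313347, of 728 bp and 4 WGATAR matches, with its midpoint between STAT5A and STAT3, was asynchronous only. By nearest TSS, this bookmarked interval belonged to STAT3 and to neither STAT5 gene.

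The gene of the SRC family kinase LYN (ENSG00000254087) is located at chr8:55879835-56014169, plus strand. Its window held 16 asynchronous intervals and 1 mitotic interval. A window of 50 kb held as many asynchronous intervals or more in 0.681% of protein-coding genes, whose median was 2 and upper quartile 4. By density, with 6.83 intervals per 100 kb, windows as dense or denser were found at 2.04% of them. The median of the 9 genes was 4. For 13 of the 16, LYN had the nearest TSS. The gene body was touched by 8, of which 5 had their midpoint in intron 1, 1 in intron 8, 1 in intron 10 and 1 in exon 13. The nearest to the canonical TSS, 5899 bp away in intron 1 (chr8:55885593-55885876), was 284 bp wide with 1 WGATAR match. The interval in exon 13 was the bookmarked one. It was 626 bp wide (chr8:56013710-56014335), held 3 WGATAR matches and reached past the annotated end of the gene. Its mitotic interval (chr8:56013984-56014299) was 316 bp wide, covered 50.5% of it and held all 3 matches. Upstream of the gene stood intervals of 972 bp (chr8:55851433-55852404) and 730 bp (chr8:55847719-55848448), both wider than the bookmarked interval and both asynchronous only. The interval of 972 bp ranked 553 in the whole list and held 2 WGATAR matches.

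The 4 bookmarked asynchronous intervals were 513, 594, 626 and 1301 bp wide, with a median of 610 bp. The 42 asynchronous-only intervals had a median width of 348.5 bp and a range of 180 to 972 bp. The groups overlapped, since several asynchronous-only intervals were wider than 3 of the bookmarked ones. The medians over the whole list were 674 bp for bookmarked and 367 bp for other intervals. None of the 23 intervals at or below 378 bp, in the 5 narrowest deciles, or the 6 in the next 2, was bookmarked at these genes, beside 0.408% and 2.76% of the whole list. In the widest decile, 1 of 6 was bookmarked, the near upstream interval of KIT, beside 24.7% of the whole list. Asynchronous-only intervals in that decile stood at KIT, JAK2, LYN and in the STAT5 windows.

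**Figure D1:**
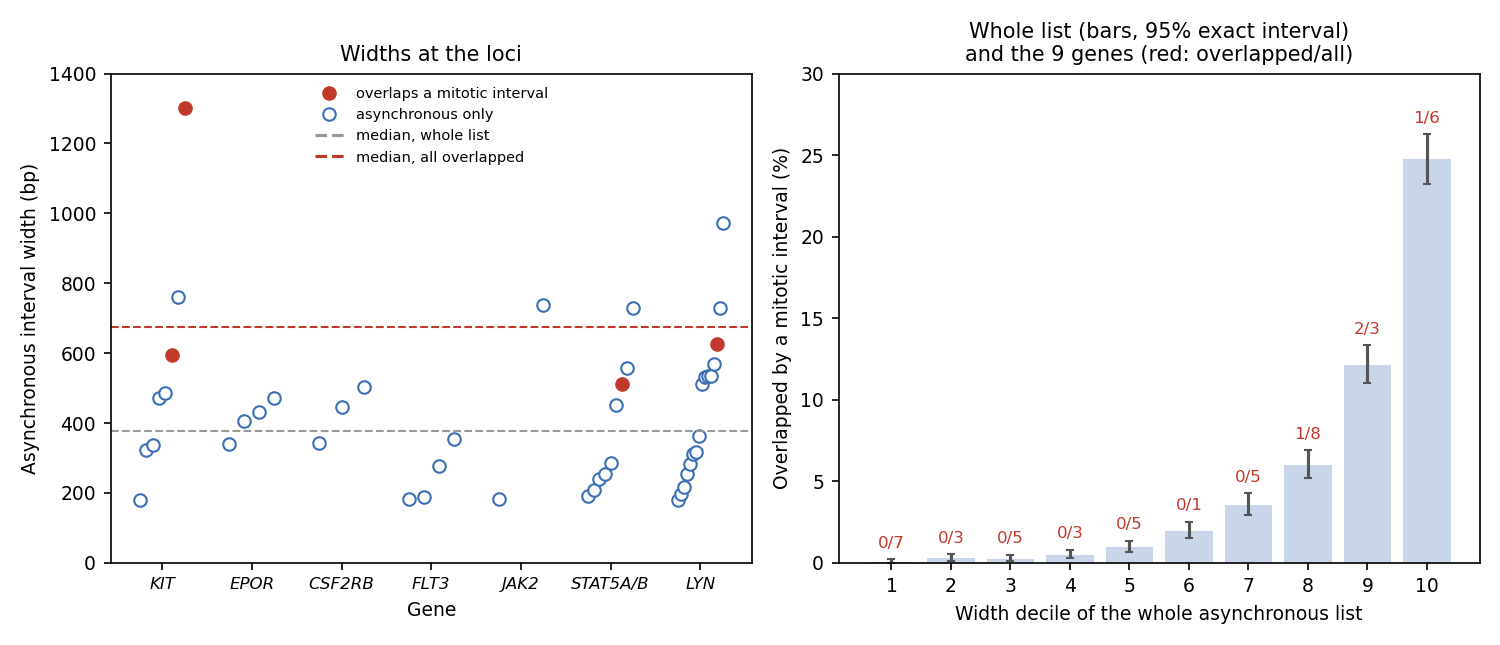
Left, width in bp of each asynchronous interval by gene, filled red where it overlaps a mitotic interval, with dashed lines at the medians of the whole list (378 bp) and of all bookmarked intervals (674 bp). Right, share of the whole asynchronous list overlapped by a mitotic interval in each width decile, with 95% exact binomial intervals and, in red, overlapped and total intervals at the 9 genes, which were 1 of 8 in the eighth, 2 of 3 in the ninth and 1 of 6 in the widest decile.

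A WGATAR match was found in 40 of the 46 asynchronous intervals, which is 87.0% (95% exact binomial interval 73.7% to 95.1%), beside 93.0% of the whole list. The 6 intervals without a match lay at KIT, EPOR, LYN and in intron 1 of STAT5B. The intervals at the 9 genes held a mean of 2.15 ± 2.38 matches (SD over intervals, n = 46), against 2.51 ± 2.99 in the whole list. The bookmarked intervals held 1, 16, 2 and 3 matches, and of all bookmarked intervals of the list 98.2% held at least 1. The composite was found in 3 of 46 intervals, or 6.52% (1.37% to 17.9%), beside 8.55% of the whole list. They stood at KIT, far upstream and in intron 1, and at EPOR. The composite of EPOR, from 11384615 to 11384630, lay in the interval over its TSS. It lay outside the stretch of that interval printed above and outside the RefSeq promoter. The composites are printed here from CTG to GATAA, with the sequence of EPOR on the minus strand.
KIT far upstream: CTGtcagcaacGATAA
KIT intron 1: CTGcaaaccttGATAA
EPOR promoter: CTGatttctgcGATAA
The composite in KIT intron 1 carries T before GATAA and thus is also a WGATAR match, whereas the other 2 carry C there and are not.

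Since STAT5 is the effector of this pathway, the palindromic core of STAT sites, TTCNNNGAA, was also searched. It was present in 9 of 46 intervals, or 19.6% (9.36% to 33.9%), beside 16.3% of the whole list. The matches were at KIT, in 4 of 8 intervals, and at LYN, in 5 of 16 intervals. None of the 22 intervals of the other genes held a match. Both bookmarked intervals of KIT were among those with a match. They were the only 2 of the 4 bookmarked intervals with one (6.76% to 93.2%), beside 26.8% of all bookmarked intervals of the list. The near upstream interval of KIT held 4 matches, of which 2 were of the form TTCCNNGAA. Only 1 of the 5 matches in these intervals lay within a mitotic interval. In the central 200 bp, the core was present in 8.70% of the 46 intervals and 8.82% of the whole list. A match to the core is a description of the sequence, and binding of STAT5 was not measured.

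For each of the other motifs searched, the share of the whole list lay within the counting interval of the 46. The E-box CAGCTG was found in 34.8% (21.4% to 50.2%) of the 46 intervals and 24.1% of the whole list. The AP-1 string was found in 17.4% (7.82% to 31.4%) and 13.0%, the RUNX core in 15.2% (6.34% to 28.9%) and 13.6%, and the ETS core in 13.0% (4.94% to 26.3%) and 14.9%. Among the 4 bookmarked intervals, none held a RUNX core (95% exact upper bound 60.2%), beside 20.4% of all bookmarked intervals of the list. The AP-1 string was present in 2 of the 4 (6.76% to 93.2%), those of LYN and STAT3, beside 19.2%. Both shares of the list lay within the counting intervals.

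By position, 12 of the 46 intervals had their midpoint within 3 kb of a protein-coding TSS, which is 26.1% (14.3% to 41.1%), beside 20.5% of the whole list. Of the others, 2 were exonic, 11 intronic and 21 intergenic. When intervals were assigned to the 9 genes by nearest protein-coding TSS instead, the share within 3 kb was 15.2% (5 of 33), below that of the whole list. The counting interval of the 46 holds both values. The bookmarked intervals were intergenic at KIT, exonic at LYN and within 3 kb of a TSS in STAT3. For 30 of the 46, the nearest protein-coding TSS belonged to 1 of the 9 genes, and 16 touched their gene bodies. At the edges of the windows, the nearest interval inside stood 355 bp from the edge, at LYN, and the nearest outside 363 bp from it, at STAT5A.

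A further 73 genes of the pathway, with 50 kb on each side, were examined in the same way. An asynchronous interval was found at 64 of them, or 87.7% (95% exact binomial interval 77.9% to 94.2%), beside 76.3% of protein-coding genes. A mitotic interval was found at 8, or 11.0% (4.85% to 20.5%), beside 11.7%. Each gene was listed under a single role, which need not be its only one. A mitotic interval was found at 1 of 10 ligands (OSM), 2 of 20 receptors (CSF3R and LIFR) and 1 of 9 kinases (ABL1). It was found at 1 of 5 STATs (STAT3), 1 of 7 adaptors (CRKL) and 2 of 22 genes listed as negative regulators (PTPN11 and DUSP6). The windows together held 343 asynchronous intervals, of which 9 were bookmarked, or 2.62% (1.21% to 4.92%). Among them were 7 intervals of the STAT5 windows, and the mitotic interval of STAT3 was the same as there. The share lay below that of the whole list by more than this counting interval, but neighbouring intervals of a locus are not independent and no test was made.

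CSF3R, the receptor for G-CSF, had a mitotic interval of 374 bp (chr1:36492588-36492961), 9310 bp from its nearest TSS. ABL1, the kinase fused to BCR in K562, had one of 270 bp in intron 2 (chr9:130854131-130854400). CRKL, an adaptor that ABL1 phosphorylates, had one of 186 bp, 311 bp from its TSS (chr22:20916911-20917096). DUSP6, a phosphatase that switches off ERK, had 2, of 390 and 559 bp, the latter nearer to POC1B. LIFR, the receptor for leukaemia inhibitory factor, had one of 214 bp, 6691 bp from its TSS. The mitotic intervals counted for OSM and PTPN11 were nearest to LIF and HECTD4. Most asynchronous intervals were found at the adaptors GAB2 (16) and GRB2 (12), at STAT3 (12), and at PIK3R1 and DUSP6 (11 each). GAB2, GRB2 and PIK3R1, which link the receptors to RAS and PI3 kinase, had no mitotic interval. Such an interval was found within 50 kb of only 11.7% of protein-coding genes.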

How the data were processed

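GATA2 ChIP-seq of asynchronous and of mitotic K562 cells gave 1 library each, and the 2 input libraries were not used here. The authors aligned reads to hg38 with BWA 0.7.12, retained reads that mapped uniquely, used MACS 2.1.0 and Genrich 0.6.1 for peak calling and removed those on the ENCODE blacklist (versions as in the submitters' processing notes). How the callers were combined, their thresholds and the use of the inputs are not given in the sources used here. The deposited lists hold 3 columns, chromosome, start and end in bp of hg38, with no score or count. Depth is unknown, so a site that is lost in mitosis and one that is missed at lower depth cannot be told apart.

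Intervals were compared with genes of GENCODE release 44, and positions are printed with the first base as 1. Motifs were searched as strings on both strands, and of overlapping matches only the first from the left was counted. Distances to a canonical TSS are from interval midpoints. Shares have 95% exact (Clopper-Pearson) binomial intervals. The overlap by at least 1 base, the WGATAR search and the search of windows were tested on simulated data, and the other steps were not. The 9 genes, the pathway genes and the alternatives were chosen with earlier results of these data known. Intervals named in the text are every mitotic one with its asynchronous partner, the widest of each gene and that nearest to its TSS, and others, chosen after their values were seen, described to account for the 46. Named pathway genes are those with a mitotic interval and the 5 with most asynchronous intervals. Alternatives changed the overlap rule, the window, the assignment to genes, the width of the intervals used, the motif string or stretch searched and the promoter distance. The software was pysam 0.24.0, matplotlib 3.10.9, scipy 1.17.1, pandas 2.3.3 and numpy 2.4.6 under Python 3.11.15.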

Additional observations from a re-analysis of the deposited data

How the results depend on the processing

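The number of bookmarked intervals changed with the window and the overlap rule. With gene bodies alone, 16 asynchronous and 1 mitotic interval were counted, at 1 of the 9 genes and at 2 of the 73 pathway genes (2.74%, beside 4.03% of protein-coding genes). With 50 kb for all genes, 2 mitotic intervals were counted, as they were when KIT was left out. With 150 kb for all genes there were 72 asynchronous intervals and 20 pathway genes with a mitotic interval (27.4%, beside 24.4%), and with 10 kb 5 such genes (6.85%, beside 5.76%). By nearest TSS, 2 of the 9 genes had a mitotic interval (6.69% of protein-coding genes). Restricted to intervals at or above the median width of their list, 23 asynchronous intervals, 2 mitotic intervals and 2 genes, KIT and LYN, were counted. Such a mitotic interval stood within 50 kb of 6.43% of protein-coding genes, but KIT was counted with 150 kb and had none within 50 kb. The share with WGATAR under this restriction was 95.7% (96.8% of the whole list). Reciprocal overlap of 50% left 1 bookmarked interval, or 2.17%, beside 2.02% of the whole list. The share with a GATA match was 60.9% for AGATAA (70.0% of the whole list), the share with the STAT core 8.70% in the central 200 bp (8.82% of the whole list), and the share near a TSS 10.9% within 1 kb (10.2% of the whole list). For asynchronous intervals at or above the median width, with mitotic intervals of any width, the bookmarked share was 17.4% (4 of 23), beside 9.65% of the whole list. The bookmarked share was 5.26% without KIT, 5.0% (2 of 40) with 50 kb and 5.56% (4 of 72) with 150 kb for all genes. These bookmarked shares stayed within the counting interval of the reported share. Of all alternatives for the 9 genes together and for the pathway genes, 18 moved and 43 did not. Moved meant outside the counting interval for a share and more than 1.5 times for a count. For the difference in median width it meant more than 1 SD. The difference in median width between bookmarked and other intervals was 261.5 bp as reported, but 77 bp among intervals at or above the median width. With gene bodies alone or reciprocal overlap it rested on 1 bookmarked interval. For single genes, 19 counts differed by more than 1.5 times, most of them with gene bodies alone. No paired analysis was possible because each condition has 1 library.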

Other observations

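Long stretches without a mitotic interval surrounded JAK2 and CSF2RB. On chromosome 9, the first mitotic interval began at 23831488, and the 68 asynchronous intervals before it, those of JAK2 included, were all asynchronous only. Their median width was 365.5 bp, beside 378 bp in the whole list, and 8 of them were in the widest decile. In the whole list, 5.04% of intervals were bookmarked, and 24.7% of those in the widest decile. The rest of the chromosome brought its totals to 1072 asynchronous and 60 mitotic intervals. Around CSF2RB, no mitotic interval was listed over 7447625 bp of chromosome 22. That stretch held 121 asynchronous intervals, of which 11 were in the widest decile. The ends of both stretches were set by the mitotic intervals themselves after the data were seen, so no interval is given for these counts, and DNA copy number and read depth in these regions were not analysed here.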
